A study of Homo sapiens with 7 samples.

Results

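Messenger RNA of 10 p53 target genes was followed in human cells in which a stress kinase was switched on with light. The genes were chosen by symbol: CDKN1A, MDM2, ZMAT3, TP53INP1, FAS, XPC, DDB2, RRM2B, FDXR and AEN, out of 18817 genes in the deposited tables. The cells were H4, an established neuroglioma line, carrying Cry2Olig-PKR (opto-PKR), a fusion of a protein that clusters in blue light to PKR, the kinase that phosphorylates the translation factor eIF2 and starts the integrated stress response. Cells from all groups carried this construct, grew in glass-bottom plates and were lysed after 0, 60, 120, 240, 480, 600 or 720 min of unbroken blue light. There was 1 CEL-Seq2-type library per time, a method that counts transcript 3' ends with molecular identifiers (UMIs). Whether the line is 1 clone was not stated in the labels. Cells kept dark for as long, and cells lit without the construct, were not analysed here, so light and time in the plate cannot be told apart. The study's stated purpose was to follow the stress response over time, and the comparison made here is how p53 targets moved through it and whether CDKN1A moved apart from the others.

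The transcription factor p53 is held low in unstressed cells by MDM2, a ubiquitin ligase that is itself a p53 target, and is released by DNA damage and other stresses. It binds DNA as a tetramer at a site made of 2 copies of a 10-base half-site, and its targets act in cell cycle arrest, DNA repair, apoptosis and feedback on p53 itself. CDKN1A encodes p21, the inhibitor of cyclin-dependent kinases through which p53 arrests the cell cycle. It is also known as a gene with many inputs other than p53, among them SP1 and KLF factors at GC boxes next to its start.

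The 6 complete libraries held 7.05e+06 to 8.91e+06 transcripts. The table at 480 min stops in alphabetical order at NME1-NME2, so ZMAT3, TP53INP1, XPC and RRM2B have no value there, and 6 of the 10 genes do. Levels are given as CPM, counts scaled to a common library size with TMM factors, and at 480 min they were scaled over the genes listed there. All 10 genes passed the filter of 10 counts in at least 3 libraries, as did 13566 genes in all. Among genes looked at for the neural and glial lineage, VIM (682 to 886 CPM) and CD44 (495 to 703 CPM) were present and SOX2 was at 15.9 to 54.5 CPM. NES was near absent at 0.202 to 1.65 CPM, and GFAP and S100B had 0 counts in every library that lists them. These values do not settle the lineage. The 7 markers of blood, endothelial, epithelial, liver and cartilage cells had between 0 and 7 counts per library. No value below has a replicate. Intervals and p-values measure counting error or the scatter of these libraries around a fitted shape, which may be technical, and in bulk RNA fewer cells and less RNA per cell cannot be told apart.

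The regions just before the start sites are shown first, because 4 of the genes carry a close match to the full p53 site there. RefSeq windows of 300 bases (250 before the start to 50 after it, build GRCh38.p14) were at hand for 8 of the 10 genes, all but TP53INP1 and RRM2B. They were searched for the p53 consensus, 2 half-sites at most 1 base apart with at most 2 mismatches in 20 bases and the core C and G of each copy kept. The motif reads alike on both strands. These settings were chosen after expression values were seen. A full site was present for MDM2, FAS, DDB2 and AEN, 4 of 8, against 0.674% of the 27305 symbols in the table. An exact half-site was present for FAS, DDB2, AEN and FDXR, against 8.06% of symbols. The genes were chosen as p53 targets, so an excess of sites over all symbols is not a test. The 8 genes had 16 windows, against 35116 for all symbols, so they also had more windows per gene. In the sequences below, printed along the gene's strand, capitals mark the site.
MDM2, chr12:68808923-68808942, plus strand, 94 to 75 bases before the start, 2 mismatches: agctGGTCAAGTTCAGACACGTTCcgaa
FAS, chr10:88991309-88991328, plus strand, 122 to 103 bases before the start, 2 mismatches: tcctGGACAAGCCCTGACAAGCCAagcc
DDB2, chr11:47214979-47214999, plus strand, 6 to 26 bases after the start, 0 mismatches and a spacer of 1 base: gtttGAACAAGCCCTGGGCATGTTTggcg
AEN, chr15:88621306-88621325, plus strand, 34 to 15 bases before the start, 2 mismatches: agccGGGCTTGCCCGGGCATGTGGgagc
FDXR half-site, chr17:74872996-74873005, minus strand, 11 to 2 bases before the start: gagcGGGCTTGCCCtgcg

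In the GENCODE release 29 basic annotation the MDM2 site is intronic in 4 of the gene's 15 transcripts and upstream or outside in 11, the FAS site is intronic in 4 of 4, and the AEN site is exonic in its 1 transcript. The DDB2 site lies in an exon in 1 of 3 transcripts and outside the other 2. For FDXR the half-site is exonic in 3 of 8 transcripts. The windows of CDKN1A, ZMAT3 and XPC held no match, which says only that these letters are not within these bases. The 250 bases before the CDKN1A start are printed because this gene is the one asked about. Capitals mark GC boxes, GGGCGG on either strand, the letters that SP1 and KLF factors bind. There are 4, counting overlapping matches, and 7.63% of all windows have at least as many before the start.
CDKN1A, chr6:36678464-36678713, plus strand: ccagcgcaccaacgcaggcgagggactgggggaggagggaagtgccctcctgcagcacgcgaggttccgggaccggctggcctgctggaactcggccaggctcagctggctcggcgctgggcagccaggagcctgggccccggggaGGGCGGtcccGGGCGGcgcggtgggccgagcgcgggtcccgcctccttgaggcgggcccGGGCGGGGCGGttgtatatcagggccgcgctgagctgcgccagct

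CDKN1A was lower than at 0 min in the first 240 min and higher from 480 min on. Its level over the times 0, 60, 120 and 240 min was 262, 185, 149 and 141 CPM, and at 480, 600 and 720 min it was 377, 361 and 391 CPM. The 3 late libraries were thus close to each other and all above the 4 earlier ones, and the highest was 2.78 times the lowest. Relative to 0 min the level was 0.705-fold at 60 min (95% exact binomial interval 0.658 to 0.755, counting error only) and 0.537-fold at 240 min (0.501 to 0.575). It was 1.44-fold at 480 min (1.37 to 1.52) and 1.49-fold at 720 min (1.41 to 1.58). The step between the neighbouring libraries at 240 and 480 min was 2.68-fold (2.52 to 2.86), whereas 240 against 120 min (0.943, 0.870 to 1.02) and 600 against 480 min (0.956, 0.912 to 1.00) differed by no more than counting error. The ratio of 720 to 600 min was 1.08 (1.03 to 1.14). CDKN1A was abundant enough that up to 2450 of the 4096 possible UMIs were used, where the correction for UMI collisions matters. Plain reads gave the same order of early and late libraries: on a CPM scale of reads CDKN1A had 226 at 0 min, 114 at 240 min and 361, 335 and 375 at the late times.

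**Figure D1:**
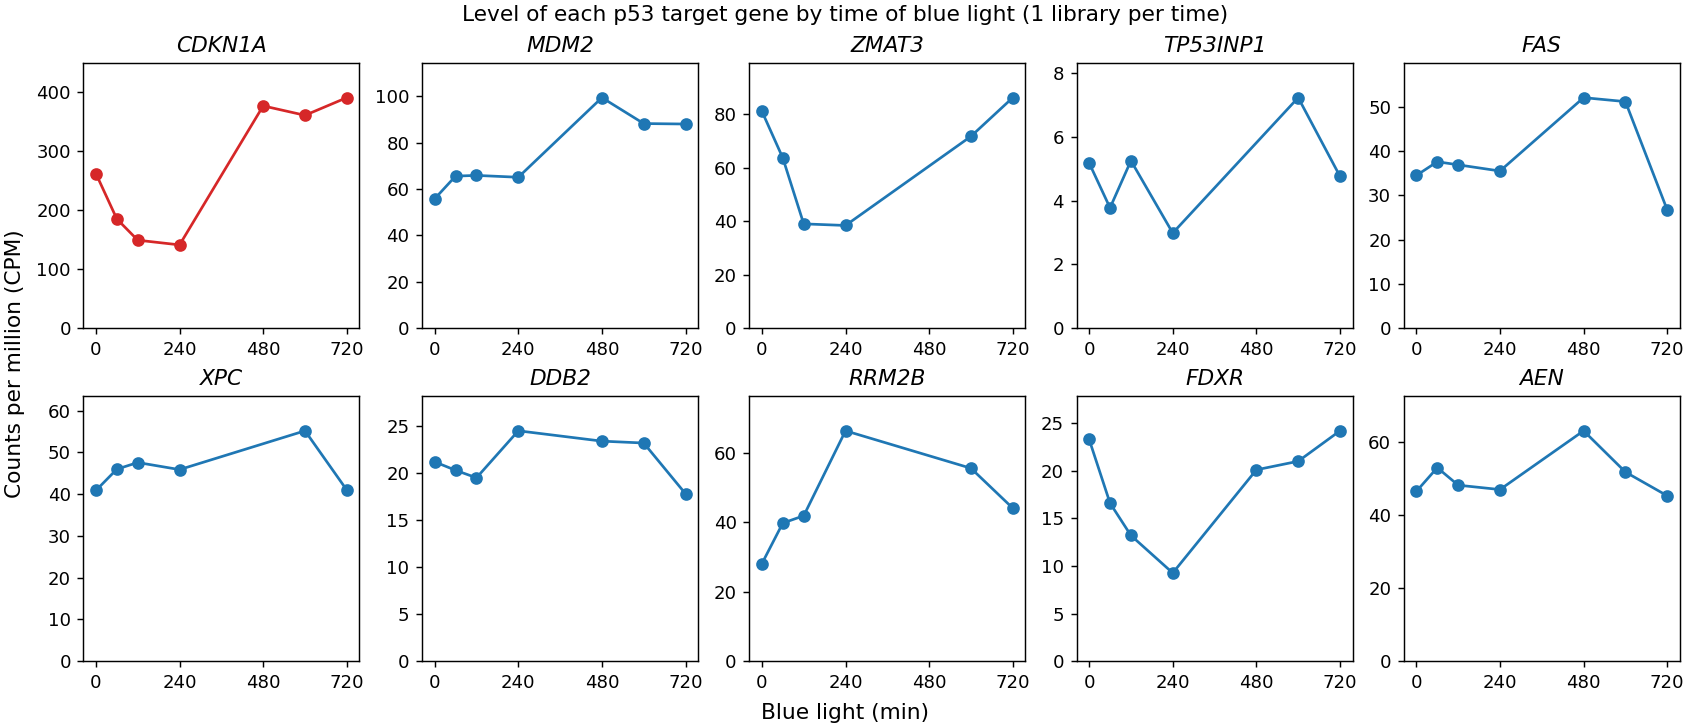
Level of each p53 target gene in every library, in CPM on a linear axis that starts at 0, against minutes of blue light; each point is 1 library, and genes named after NME1-NME2 have no point at 480 min. CDKN1A runs from 262 CPM through 141 CPM at 240 min to 391 CPM at 720 min, while DDB2 stays between 17.8 and 24.5 CPM.

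MDM2, the ligase that returns p53 to a low level, was the other gene whose 3 late libraries lay above all earlier ones. It stood at 55.8 CPM at 0 min, 65.6, 65.9 and 65.1 CPM at 60, 120 and 240 min, and 99.5, 88.3 and 88.1 CPM at 480, 600 and 720 min. Unlike CDKN1A it was not below its 0 min level in any lit library: the ratio was 1.17 at 60 min (1.03 to 1.34) and 1.78 at 480 min (1.60 to 1.99). Of all genes tested, 14.1% had every library from 480 min on above every earlier one, and 13.2% had them all below. Among the 10 targets these counts were 2 and 0.

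ZMAT3, an RNA-binding protein and tumour suppressor downstream of p53, shared the early dip of CDKN1A. Its level was 81.2, 63.7, 39.0 and 38.4 CPM over the 4 libraries up to 240 min, then 71.8 and 86.3 CPM at 600 and 720 min. It was 0.472-fold of its starting level at 240 min (0.414 to 0.538) and back to 1.06-fold at 720 min (0.953 to 1.18). FDXR, the mitochondrial reductase that supplies electrons for steroid and iron-sulphur cluster synthesis, had the deepest dip of the 10. It went through 23.3, 16.6, 13.2 and 9.26 CPM at 0 to 240 min and stood at 20.1, 21.0 and 24.2 CPM from 480 min on. Its ratio to 0 min was 0.397 at 240 min (0.304 to 0.516) and 1.04 at 720 min (0.844 to 1.27).

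CDKN1A, ZMAT3 and FDXR were therefore the 3 of 10 genes with both the 120 and 240 min libraries below the 0 min library and every late one. This held for 20.1% of all genes tested, and the opposite pattern for 19.1% of genes and 0 of the 10. ZMAT3 and FDXR ended near where they began, and CDKN1A ended above. The ratio of 720 to 240 min was 2.78 for CDKN1A (2.60 to 2.97), 2.25 for ZMAT3 (1.97 to 2.57) and 2.61 for FDXR (2.00 to 3.42).

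RRM2B, the p53-inducible subunit of ribonucleotide reductase that supplies nucleotides for repair, moved the other way. It went through 28.1, 39.8, 41.9 and 66.4 CPM at 0, 60, 120 and 240 min, and the 600 and 720 min libraries had 55.6 and 44.1 CPM. Every lit library was above the unlit one, and the level was 2.36-fold at 240 min (2.03 to 2.75). XPC and DDB2, which recognise damaged bases in nucleotide excision repair, varied little: the highest library was 1.35 times the lowest for XPC and 1.37 times for DDB2. XPC stood at 40.9, 46.0, 47.6, 45.9, 55.2 and 41.0 CPM at 0, 60, 120, 240, 600 and 720 min. DDB2 stood at 21.2, 20.3, 19.5, 24.5, 23.4, 23.2 and 17.8 CPM over the 7 times, and each of its 6 intervals against 0 min spanned 1. A single library set the one departure of XPC at 600 min (1.35-fold, 1.17 to 1.56).

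The genes of cell death had their highest library at 480 or 600 min. FAS, the death receptor, was at 34.5, 37.6, 36.9 and 35.5 CPM up to 240 min, and at 52.1, 51.2 and 26.7 CPM in the 3 late libraries. Its last library was the lowest of the 7, at 0.522 times the 600 min level (0.439 to 0.617). AEN, a nuclease of apoptotic DNA breakdown, stood at 46.5, 53, 48.2, 47.0, 63.1, 51.8 and 45.3 CPM over the 7 times. Only at 480 min was it outside counting error of 0 min (1.36-fold, 1.20 to 1.54). TP53INP1, a protein of p53-dependent apoptosis and autophagy, was scarce, with 27 to 63 counts and 2.98 to 7.23 CPM. At this depth its ratios were imprecise: 0.575 at 240 min (0.342 to 0.949) and 1.40 at 600 min (0.934 to 2.10).

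At single times the targets did not move as a block. At 60 min the interval against 0 min lay above 1 for 2 of 10 genes and below 1 for 3, where 21.7% and 22.3% of all genes tested did so, and at 120 min again for 2 and 3 (28.4% and 30.3%). At 240 min the interval against 0 min lay above 1 for 2 of 10 genes (MDM2 and RRM2B) and below 1 for 4 (CDKN1A, ZMAT3, TP53INP1 and FDXR), against 34.2% and 33.8% of genes. At 480 min it lay above 1 for 4 of the 6 listed (CDKN1A, MDM2, FAS and AEN) and below for 0, against 32.8% and 32.5%. At 600 min 5 genes were above and 1, ZMAT3, below (30.0% and 29.2% of all genes), and at 720 min 3 were above and 1, FAS, below (27.8% and 27.4%). The median log2 ratio of the 10 was 0.03 at 240 and 720 min and 0.45 at 600 min, and that of the 6 listed at 480 min was 0.48. Few targets were 2-fold from their start. ZMAT3 was lower by that much at 120 min, where 3.11% of genes were, and 0 targets were higher (5.63%). ZMAT3 and FDXR were lower at 240 min (6.13% of genes), and RRM2B was higher then (10.5%). In the other libraries 0 targets were 2-fold higher or lower, where 2.19% and 0.411% of genes were at 60 min, 9.63% and 6.40% at 480 min, 6.35% and 4.59% at 600 min, and 4.94% and 4.64% at 720 min.

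**Figure D2:**
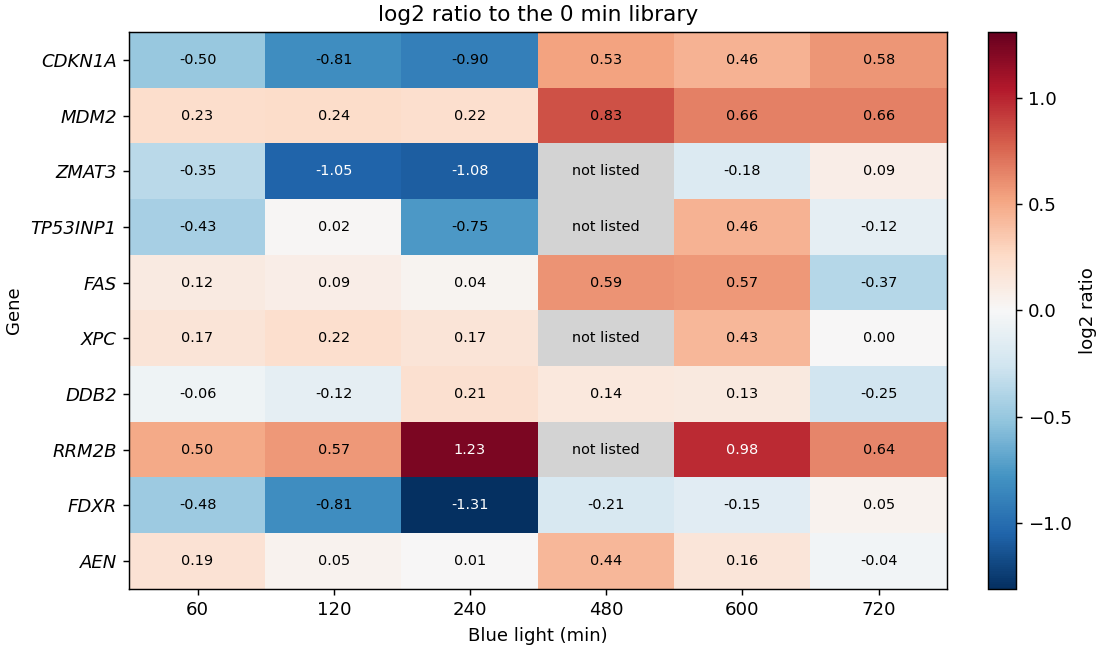
Heat map of the log2 ratio of each lit library (columns, minutes of blue light) to the 0 min library for each p53 target gene (rows), printed in each cell; blue is lower, red is higher, and grey cells are genes not listed at 480 min. CDKN1A, ZMAT3 and FDXR are blue at 120 and 240 min, with -0.90, -1.08 and -1.31 at 240 min, while RRM2B is red at each lit time it has, up to 1.23.

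Time courses were then tested over all libraries with edgeR's quasi-likelihood test. The trend is the fitted log2 change from 0 to 720 min, and the bend is the fitted log2 level at 360 min minus the mean of those at 0 and 720 min. Trends passed an adjusted p of 0.05 for 0 of the 10 targets, where 6.86% of all genes did. Unadjusted p was under 0.05 for 2, CDKN1A (1.13 ± 0.36 SE, edgeR adjusted p = 0.102) and MDM2 (0.70 ± 0.20, adjusted p = 0.0682). DESeq2 called 1, MDM2 (adjusted p = 0.0168), and without the 0 min library the CDKN1A trend was 1.64 (edgeR adjusted p = 0.0165). The other 8 trends lay between -0.01 and 0.47, the lowest being that of DDB2 and the highest that of RRM2B.

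Bends were called for 2 targets, in opposite directions. RRM2B bent upward by 1.03 ± 0.20 (edgeR adjusted p = 0.00314) and ZMAT3 downward by -1.19 ± 0.25 (adjusted p = 0.00487), so 1 of 10 in each direction, where 31.2% of all genes bent, 17.5% upward and 13.7% downward. Without the 240 min library neither was called, although the bends were of like size: 0.86 for RRM2B (edgeR adjusted p = 0.104) and -1.09 for ZMAT3 (adjusted p = 0.0834). Without the 0 min library that of ZMAT3 was -0.97 (edgeR adjusted p = 0.0517). FDXR was at -0.82 ± 0.31 (adjusted p = 0.0610) and FAS at 0.59 ± 0.26 (adjusted p = 0.105). CDKN1A, which steps from low to high between 240 and 480 min, is described poorly by either shape, with a bend of -0.49 ± 0.45 (adjusted p = 0.450). On a logarithmic time scale its bend was -1.13 (adjusted p = 0.00423), and without the 480 min library -1.04 (adjusted p = 0.0198). FDXR was called on the logarithmic scale (-1.02, adjusted p = 0.00953), with DESeq2 (-0.83, adjusted p = 0.0419), without the 480 min library (-1.26, edgeR adjusted p = 0.00768) and without the 720 min library (-1.49, adjusted p = 0.0144). FAS was called without the 240 min library (0.90, edgeR adjusted p = 0.0470) and had a bend of -0.14 without the 720 min library.

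**Figure D3:**
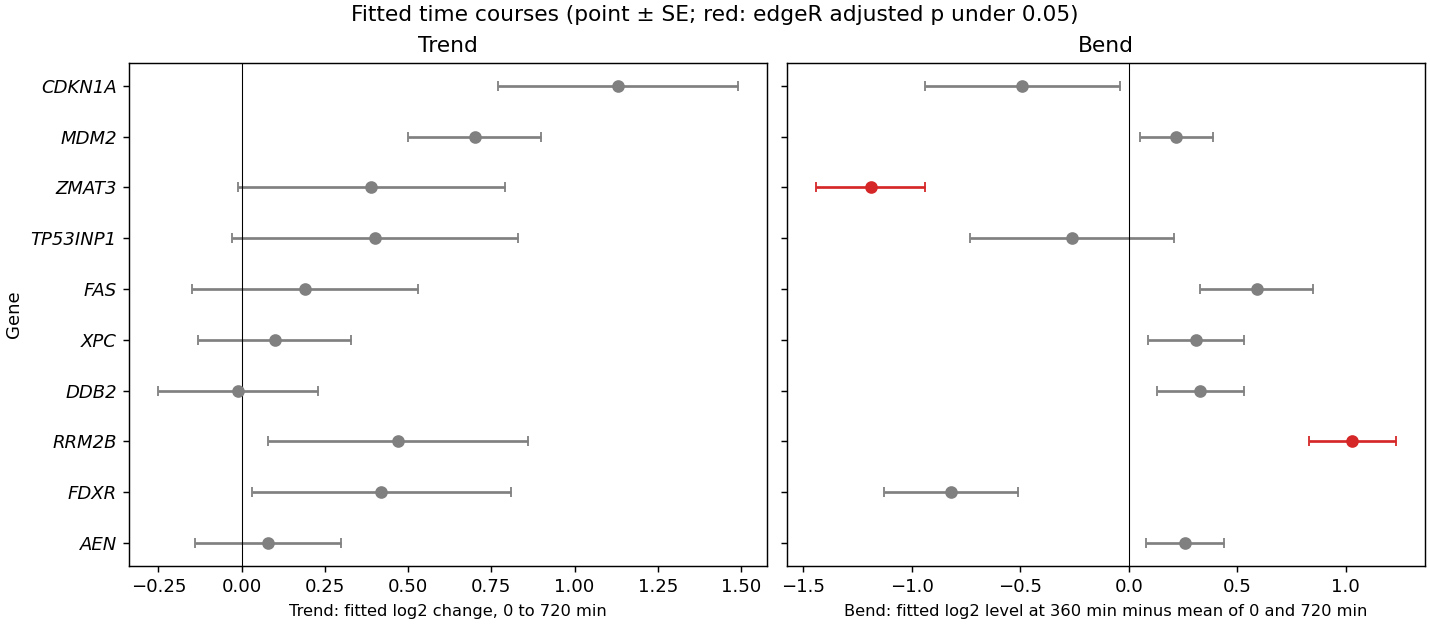
Fitted trend (left, log2 change from 0 to 720 min) and bend (right, fitted log2 level at 360 min minus the mean of 0 and 720 min) of each p53 target gene, with standard errors; red marks an edgeR adjusted p under 0.05. No trend is red, and the bends of ZMAT3 (-1.19) and RRM2B (1.03) are.

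To ask whether CDKN1A moved apart from the other targets, its log2 shift from 0 min was set beside the mean shift of the others. Over the 5 others listed at every time (MDM2, FAS, DDB2, FDXR and AEN), that mean was -0.00, -0.11 and -0.17 at 60, 120 and 240 min, and 0.36, 0.27 and 0.01 in the 3 late libraries. CDKN1A lay below it by 0.50, 0.70 and 0.73 at 60, 120 and 240 min, and above it by 0.17, 0.19 and 0.57 at 480, 600 and 720 min. Against all 9 others, without the 480 min library, the differences were -0.49, -0.72, -0.75, 0.12 and 0.50. CDKN1A was therefore farther below its start early and farther above it at 720 min than the others were on average, and close to them at 480 and 600 min. This mean hides the split among the others, since ZMAT3 and FDXR were lower early as well and RRM2B was higher.

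**Figure D4:**
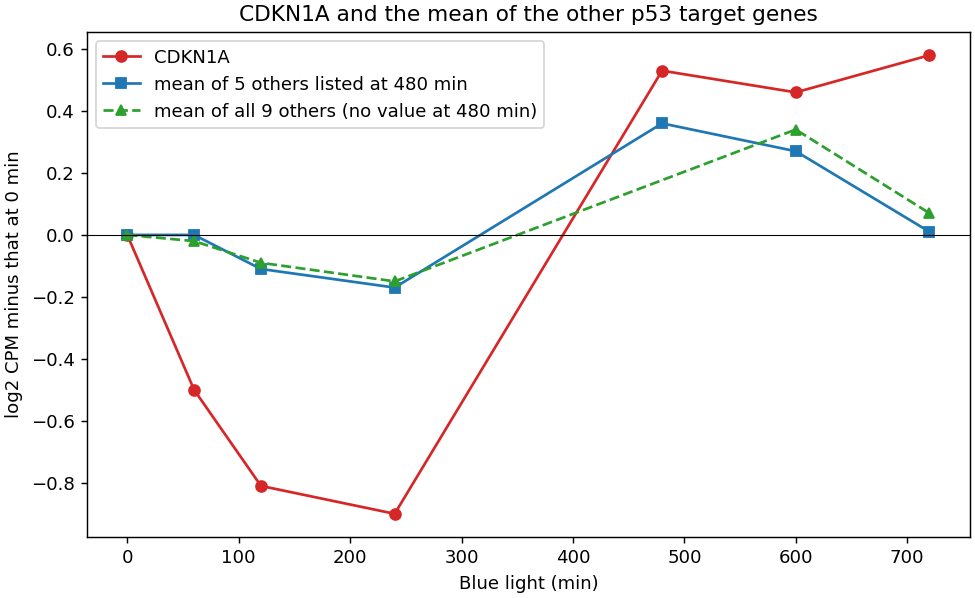
Log2 CPM minus that at 0 min against minutes of blue light, for CDKN1A (red), for the mean of the 5 other p53 targets listed at 480 min (blue) and for the mean of all 9 others (green, dashed, no value at 480 min). The red line lies 0.73 below the blue one at 240 min, 0.17 above it at 480 min and 0.57 above it at 720 min.

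Each gene's difference from CDKN1A within the same library was tested with limma. For the trend, 0 of 9 targets differed from CDKN1A at an adjusted p of 0.05, where 18.8% of all genes did. Unadjusted p was under 0.05 for 1, DDB2, and edgeR with CDKN1A as an offset called 0 as well. All 9 differences were negative, from -0.52 ± 0.57 for MDM2 (limma adjusted p = 0.416) to -1.23 ± 0.61 for DDB2 (adjusted p = 0.100). Each subtracts the same CDKN1A course, whose trend was the largest among the targets, so the shared sign is not 9 separate observations. Without the 0 min library 5 of the 9 were called, FAS, XPC, DDB2, RRM2B and AEN, but so were 10304 of all genes, so that count does not set the targets apart. For the bend, 2 of 9 were called, against 18.6% of all genes: RRM2B by 2.06 ± 0.51 (limma adjusted p = 0.00155) and XPC by 1.34 ± 0.51 (adjusted p = 0.0482). Both calls were lost without the 0 or the 240 min library, and that of XPC also without the 60 or the 120 min library and with read counts. RRM2B and XPC, like ZMAT3 and TP53INP1, were fitted without the 480 min library, so their CDKN1A reference differs from that of the other targets. Without that library the edgeR bend of CDKN1A was -1.04, against -0.49 with it. In the same setting limma also called FAS (1.47) and DDB2 (1.37). The bends closest to that of CDKN1A were those of ZMAT3 (-0.16 ± 0.50, adjusted p = 0.852) and FDXR (-0.33 ± 0.61, adjusted p = 0.733). These p-values are too small, because every difference contains the noise of CDKN1A itself, and genes then do not supply independent estimates of the spread. With each gene's own residual spread in place of the moderated one, 0 of all genes and 0 targets were called in either test. The bends of RRM2B and XPC then had an adjusted p of 0.312 each in the limma fit without moderation (unadjusted 0.0254 and 0.0234).

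Log2 levels over the 7 libraries were also compared with that of CDKN1A for other genes listed at 480 min. ZMAT3, TP53INP1, XPC and RRM2B are not listed there, so they could not be compared. Among 5503 genes of at least 10 CPM on average listed at 480 min, Pearson's r was highest for CYFIP2, a subunit of the WAVE actin regulator (0.990), DYNC1H1, the dynein heavy chain (0.982), CYP2R1, a vitamin D hydroxylase (0.982), MTHFD2L, a mitochondrial folate enzyme (0.980), and CHST1, a sulphotransferase (0.975). They were picked as the extremes of that many genes in the same 7 libraries. The levels of MTHFD2L at 0, 240 and 720 min were 18.8, 9.04 and 43.5 CPM, and those of CHST1 were 26.4, 6.73 and 52.0 CPM. The lowest values were those of KIAA1147 (-0.994), the chemokine gene CCL2 (-0.990) and the ubiquitin ligase gene FBXO32 (-0.987). CCL2 ran opposite to CDKN1A, with 89.9, 383, 36.0 and 22.9 CPM in the 0, 240, 480 and 720 min libraries.

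Of 17 regulators of p53, edgeR and DESeq2 called 0 trends (1 had an unadjusted p under 0.05 in edgeR). Of the 13566 genes tested, edgeR called 6.86% and DESeq2 called 1572. In bend edgeR called 7 of the 17, all upward. The median bend was 0.41, against 0.01 over all genes, of which 17.5% bent upward. As this list was chosen with earlier results of these data known, setting it against all genes is not a test. Inhibitors of p53 were among the 7. MDM4, the partner of MDM2 that masks p53, bent by 0.83 ± 0.22 (edgeR adjusted p = 0.0163), with 47.1, 128, 105 and 91.9 CPM in the 0, 240, 480 and 720 min libraries. PPM1D, the phosphatase that switches p53 signalling off, bent by 1.05 ± 0.26 (adjusted p = 0.00877), with 30.6, 65.5 and 33.7 CPM at 0, 240 and 720 min. The deacetylase SIRT1 (1.24 ± 0.22, adjusted p = 0.00200), the ligase RCHY1 (1.14 ± 0.21, adjusted p = 0.00225) and the ligase TOPORS (0.85 ± 0.21, adjusted p = 0.00900) did likewise. So did EP300 (1.28 ± 0.28, adjusted p = 0.00820), which acetylates p53 and activates with it, and CHEK1, a kinase that phosphorylates it. The calls of MDM4, PPM1D, EP300 and TOPORS were lost without the 0 or the 240 min library, that of RCHY1 without the 240 min library, and that of CHEK1 (0.41 ± 0.14, adjusted p = 0.0470) in each leave-one-out fit.

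A longer list held 45 other p53 targets, 39 of them tested. Trends rose for 4 and fell for 2, against 3.90% and 2.96% of all genes. Bends were upward for 8 and downward for 6, near the 17.5% and 13.7% of all genes, and the median bend was 0.22. The 6 that dipped are named in full, a choice made after their values were seen. PHLDA3, an inhibitor of AKT, bent by -1.48 ± 0.28 (edgeR adjusted p = 0.00308), with 71.8, 25.3 and 82.3 CPM in the 0, 240 and 720 min libraries. BAX, which opens the mitochondrial outer membrane in apoptosis, had 22.6, 9.26, 19.7 and 37.0 CPM in the 0, 240, 480 and 720 min libraries (-1.29 ± 0.32, adjusted p = 0.0115). TP53I3, a quinone reductase, went from 7.30 to 2.10 CPM at 240 min and back to 7.40 CPM (-1.65 ± 0.48, adjusted p = 0.0207). CD82, a membrane tetraspanin (-1.26 ± 0.21), POLH, the polymerase that copies past damage (-0.75 ± 0.22), and TRIAP1 (-0.67 ± 0.21) completed the group, with edgeR adjusted p of 0.00195, 0.0202 and 0.0298. Each of the 6, like ZMAT3 and FDXR, had a lower level at 240 min than at 0 and 720 min. Of the 6, BAX, TP53I3, POLH and TRIAP1 were not called without the 0 or the 240 min library, nor POLH and TRIAP1 without the 120 min library, and PHLDA3 was not called without the 240 min library.

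Of the same list, 11 other genes were called in trend or bend. SESN2, a regulator of mTORC1, had 20.2, 126 and 155 CPM in the 0, 240 and 720 min libraries, with a trend of 2.40 ± 0.59 (edgeR adjusted p = 0.0488) and a bend of 1.73 ± 0.21 (adjusted p = 3.94e-04). That trend was called in 2 of 7 leave-one-out fits, and its bend was kept in all 7. PMAIP1, the BH3-only death protein NOXA, had 40.7, 193 and 102 CPM in the same 3 libraries (bend 1.77 ± 0.34, adjusted p = 0.00577; not called without the 240 min library). GDF15, a secreted stress cytokine, rose, with 329, 280, 802 and 1029 CPM at 0, 240, 480 and 720 min (trend 1.84 ± 0.30, edgeR adjusted p = 0.00968), a call lost without the 600 min library. At 480 min it used 3506 of the 4096 possible UMIs, where the collision correction matters. Over the alternative settings its trend ran from 0.95 to 2.53. TNFRSF10B, the death receptor DR5, rose from 85.4 to 209 CPM (trend 1.46 ± 0.24, adjusted p = 0.0124), lost without the 60 or the 600 min library. KITLG, the ligand of the receptor KIT, bent upward by 1.09 ± 0.17 (adjusted p = 0.00138) and held in every leave-one-out fit. EDA2R, a receptor of the tumour necrosis factor family, rose (trend 1.68 ± 0.38, edgeR adjusted p = 0.0332), and TP53I11 fell (-1.48 ± 0.28, adjusted p = 0.0208). FUCA1, a lysosomal fucosidase, fell with an upward bend (trend -1.75 ± 0.44, adjusted p = 0.0484). The bends of GADD45A, ASCC3 and ZNF79 were upward, with edgeR adjusted p between 0.0246 and 0.0495. Each of these 6 calls was lost in at least 2 of the 7 leave-one-out fits. GADD45A used 3865 of the 4096 possible UMIs at 480 min, and with plain UMI counts its bend was 0.40 (edgeR adjusted p = 0.411).

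The other inhibitors of cyclin-dependent kinases, and the kinases and their partners, went both ways. Of 14 tested genes of this list trends rose for 1 and fell for 3, where 3.90% and 2.96% of all genes did, and bends were upward for 3 and downward for 6, where 17.5% and 13.7% of all genes were. Cyclin D2 (CCND2) rose from 95.8 to 297 CPM (trend 1.90 ± 0.25, edgeR adjusted p = 0.00435). CDKN2C, the inhibitor p18, fell from 392 to 141 CPM (-1.53 ± 0.24, adjusted p = 0.00772), and cyclin E2 (CCNE2) from 54.3 to 22.3 CPM (-1.45 ± 0.24, adjusted p = 0.0104). The other falling gene was CDK2, with 43.6 CPM in the first and 27.5 CPM in the last library (-0.82 ± 0.20, edgeR adjusted p = 0.0392). All 3 falling calls were lost without the 600 min library. CDKN1C, the inhibitor p57 of the same family as p21, had 12.5, 6.73, 5.76 and 11.9 CPM at 0, 240, 480 and 720 min. Its bend was -1.08 ± 0.25 (edgeR adjusted p = 0.00744), not called without the 0 min library. CDKN1B, also of this family, had 65.0, 149, 95.8 and 77.1 CPM at these times. Its bend of 0.75 ± 0.32 was not called (edgeR adjusted p = 0.104). CDK6, a partner of cyclin D, bent upward (0.76 ± 0.14, adjusted p = 0.00250), and cyclin D1 (CCND1) downward (-0.63 ± 0.17, adjusted p = 0.0149). The call of CDK6 held in every leave-one-out fit, and that of CCND1 was lost without the 240, the 480 or the 720 min library. On a logarithmic time scale neither CDK6 (0.33, edgeR adjusted p = 0.210) nor CCND1 (-0.36, edgeR adjusted p = 0.189) was called.

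Cell cycle genes repressed through the DREAM complex, a repressor that p21 favours, had a median trend of -0.37 over 20 genes, against -0.02 over all genes. They too were chosen with earlier results of these data known, so this comparison is not a test. The fitted trend was positive for 0 of the 20, against 6589 of the 13566 genes tested, and for 0 to 3 of them in leave-one-out fits. In trend edgeR called 1 of them, falling, where 2.96% of all genes fell. In bend it called 4 downward and 1 upward, where 13.7% and 17.5% of all genes were, so these counts lie near the shares of all genes. The falling gene was CDK1, which drives mitosis, with 272 CPM in the first and 187 CPM in the last library (-0.62 ± 0.14, edgeR adjusted p = 0.0329; kept in 2 of 7 leave-one-out fits). PLK1 (-0.65 ± 0.16, adjusted p = 0.0104) and MYBL2 (-0.67 ± 0.17, adjusted p = 0.0107) bent downward, and neither was called without the 0 or the 240 min library, nor PLK1 without the 720 min library. E2F1, MCM5 and KIF23 had adjusted p between 0.0352 and 0.0429 in the same test, and the calls of E2F1 and MCM5 held in 0 of 7 leave-one-out fits and that of KIF23 in 3.

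Regulators of CDKN1A other than p53 often bent upward. Of 26 genes edgeR called 11 upward and 1 downward, with a median bend of 0.96, where 17.5% of all genes bent upward and 13.7% downward. The list was chosen with earlier results of these data known, so its shares against those of all genes are not a test. In trend 1 fell and 0 rose, where 2.96% and 3.90% of all genes did. KLF4, an activator of CDKN1A that binds GC-rich promoters, had 10.5, 66.6, 62.1 and 33.9 CPM in the 0, 240, 480 and 720 min libraries (bend 1.91 ± 0.27, edgeR adjusted p = 0.00102). KLF5 followed the same course, at 12.5, 94.0, 66.9 and 39.9 CPM (2.04 ± 0.36, adjusted p = 0.00456). FOXO3, another activator, stood at 64.2, 164, 127 and 77.1 CPM at these times (1.17 ± 0.17, adjusted p = 0.00102). KLF4, KLF5 and FOXO3 were each above their 0 min level at 240 and at 480 min. The calls of KLF4, KLF5 and FOXO3 held in each of the 7 leave-one-out fits. RUNX1 (1.57 ± 0.25), the glucocorticoid receptor NR3C1 (1.25 ± 0.22) and TFAP2A (1.17 ± 0.22) also bent upward, with edgeR adjusted p of 0.00127, 0.00239 and 0.00283, and were not called without the 240 min library. Their part in the level of CDKN1A was not tested.

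**Figure D5:**
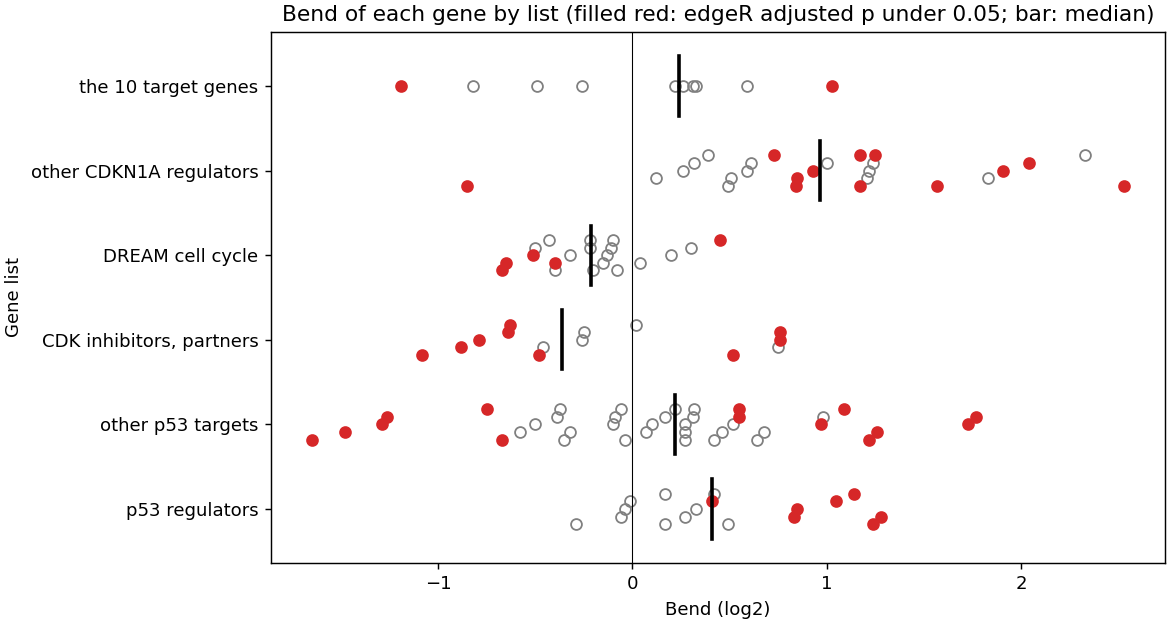
Fitted bend (horizontal axis, log2) of each tested gene in 6 lists (rows); points are genes, set apart vertically for sight, filled red where the edgeR adjusted p is under 0.05, and black bars are medians. The median bend is 0.24 for the 10 targets, 0.41 for p53 regulators and 0.96 for other regulators of CDKN1A.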

How the data were processed

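RNA of 7 H4 opto-PKR cultures, 1 per time, was measured by CEL-Seq2-type sequencing. Deposited by the authors were expected counts per gene (of reads, UMIs and transcripts, which need not be whole) and mapping summaries. Per the submitters' processing notes BWA and build hg19 were used; versions, annotation, the counting program and the treatment of reads matching several genes were not given in the sources used here. Transcript counts of barcode 4 equal UMI counts corrected for collisions among 4096 UMIs, and were rounded to whole numbers. ERCC spike-in RNA was 0.00596% to 0.0124% of reads in the complete libraries and 0% at 480 min, a difference whose cause was not tested. It was left out.

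Genes with at least 10 counts in 3 libraries were fitted with edgeR 4.0.16 (R 4.3.3, TMM, robust quasi-likelihood F test): genes up to NME1-NME2 on 7 libraries, later genes on 6, all p-values adjusted together (Benjamini-Hochberg, 0.05). Residual degrees of freedom were 5 or 4 for the trend and 4 or 3 for the bend, and the residual holds departure from the fitted shape as well as noise. Differences from CDKN1A used limma 3.58.1 on log2 CPM computed here from the deposited counts, with a prior count of 2. Ratios to 0 min have exact binomial 95% intervals on corrected counts, which cover counting error only. DESeq2 1.42.0, other size factors, UMI and read counts, other filters, prior counts and time scales, and leaving out each library were alternatives. Scripts were tested on simulated data.

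The members and the 5 other gene lists were chosen with earlier results of these data known. Named genes are the members, the up to 6 genes per list with the smallest adjusted p for trend or bend among those called, and the 5 genes most and 3 least correlated with CDKN1A. The rest were named after their values were seen (BAX, TP53I3, POLH, TRIAP1, TNFRSF10B, CHEK1, EDA2R, TP53I11, FUCA1, GADD45A, ASCC3, ZNF79, CDKN1B, CDK2, CEBPA and EGR1). Counts of 2-fold differences needed 50 counts or more in one of both libraries. A further gene that the rule also names is not reported here.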

Additional observations from a re-analysis of the deposited data

How the results depend on the processing

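No paired analysis was possible because there was 1 library per time and no replicate number is shared by more than that. The number of genes with a called trend was 930, 1572 with DESeq2 and 135 to 1481 when 1 library was left out; of the 10 targets 0 were called, 1 with DESeq2 and 0 to 1 without 1 library. The CDKN1A trend ranged from 1.00 to 1.64 in leave-one-out fits. Called bends numbered 4238 genes (1320 to 4307 without 1 library) and 2 targets (4 on a logarithmic time scale, 1 to 4 without 1 library). The CDKN1A bend was -1.13 on the logarithmic scale and -1.28 to -0.03 without 1 library. Uncalled trends changed sign for DDB2 (0.05 on the logarithmic scale, 0.01 without 240 min; leave-one-out range -0.10 to 0.25), AEN (-0.03 without 480 min, up to 0.28) and, without 600 min, TP53INP1 (-0.01, up to 0.73), FAS (-0.07, up to 0.73) and XPC (-0.11, up to 0.42). Bends changed sign on the logarithmic scale for MDM2 (-0.08), CCND2 (-0.32) and TNFRSF10B (-0.18), for TP53INP1 without 0 min (0.08) or 240 min (0.58; lowest -1.13), and for FAS without 720 min (-0.14, up to 0.90). The cause was not tested. Calls in the other lists moved too: upward bends ran from 1 to 8 of p53 regulators (main 7), 5 to 9 of other p53 targets (8) and 3 to 18 of other CDKN1A regulators (11), and downward bends of other p53 targets from 1 to 7 (6). Their falling trends ran from 0 to 5 (2) and rising trends from 0 to 6 (4). Downward bends ran from 2 to 6 of the kinase inhibitors and partners (6) and 0 to 4 of the DREAM genes (4), and falling trends from 0 to 5 (3) and 0 to 3 (1); those of other CDKN1A regulators ran from 0 to 8 (1).

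Differences from CDKN1A depended on the settings. In trend, 2554 genes were called, 998 with UMI counts, 188 on the logarithmic and 264 on the rank time scale, 0 without moderation across genes (chosen after seeing the data) and 173 to 10304 without 1 library, with 0 to 5 targets. In bend, 2521 genes were called, 3815 with UMI counts, 10532 on the logarithmic and 4951 on the rank scale, 0 without moderation and 13 to 6524 without 1 library. Targets called were 2, 1 with read counts, 6 on the logarithmic scale, 0 without moderation and 0 to 4 without 1 library; RRM2B was lost without 0 or 240 min, and XPC with read counts and without 0, 60, 120 or 240 min. Signs changed for the RRM2B trend without 720 min (0.07; lowest -1.40) and, for the bend, for ZMAT3 (0.14 on the logarithmic scale, -0.33 to 0.00 without 1 library) and FDXR (0.11 on the logarithmic scale). The log2 ratio of CDKN1A to 0 min with plain UMI counts was -0.37, -0.60, -0.72, 0.30, 0.33 and 0.46 at 60 to 720 min; with reads it was -0.61, 0.68, 0.57 and 0.73 at 60, 480, 600 and 720 min. TP53INP1, with 27 to 63 counts, had the fewest counts of the 10.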
